A study of Homo sapiens with 6 samples.

Results

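Tight junctions seal the space between neighbouring epithelial cells, and 9 genes that encode their parts are described here in ZR-75-1, an oestrogen-receptor-positive luminal breast cancer cell line. The genes are the claudins CLDN1, CLDN2, CLDN3, CLDN4, CLDN7 and CLDN12, the occludin gene OCLN, the scaffold gene TJP1 and the adhesion gene F11R, which are 9 of the 60656 genes in the count table. They were chosen by their function and on measured values from the same libraries, the difference between abemaciclib and DMSO, with CLDN2 picked out because it lay near a count of 0 in DMSO. The levels and differences of the 9 genes are therefore a description, and no P value is given for them. Where such a gene is said to pass a threshold or not, this describes the fit and its settings. It is no test of the gene. All 6 libraries came from parental cells, grown in RPMI-1640 with 10% fetal bovine serum. The 3 control cultures received DMSO and the other 3 received abemaciclib, an inhibitor of the cell cycle kinases CDK4 and CDK6, at 500 nM, each for 4 days. The methods describe such replicates as independent, but they share a single cell line, and RB1-knockout cells were not analysed here.

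Claudins are small proteins with 4 membrane spans that polymerise into strands between cells and set what passes between them. CLDN1, CLDN3, CLDN4 and CLDN7 are usually counted among the sealing claudins, whereas CLDN2 forms a channel for small cations and water and is characteristic of leaky epithelia such as the proximal kidney tubule and the intestinal crypt. Occludin sits in the same strands, F11R encodes the immunoglobulin-like adhesion protein JAM-A, and TJP1 encodes ZO-1, the cytoplasmic scaffold that ties the strands to actin. Simple epithelia of the breast usually carry CLDN3, CLDN4 and CLDN7, and loss of these 3 is a hallmark of the claudin-low tumour subtype.

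The promoters of CLDN1, CLDN2, CLDN3 and CLDN4 are shown first, and those of the other genes are not printed. Whether base composition or motifs around the starts bear on the levels or differences below was not tested. Each run spans 250 bases before to 50 bases after an annotated start, is given 5′ to 3′ on the gene's own strand and comes from RefSeq on GRCh38.p14. Capitals mark every match to the motifs searched. The CLDN1 window lies at chr3:190322397-190322696 on the minus strand, the CLDN2 windows at chrX:106899914-106900213 and chrX:106918110-106918409 on the plus strand, the CLDN3 window at chr7:73770221-73770520 on the minus strand and the CLDN4 window at chr7:73830746-73831045 on the plus strand.
CLDN1: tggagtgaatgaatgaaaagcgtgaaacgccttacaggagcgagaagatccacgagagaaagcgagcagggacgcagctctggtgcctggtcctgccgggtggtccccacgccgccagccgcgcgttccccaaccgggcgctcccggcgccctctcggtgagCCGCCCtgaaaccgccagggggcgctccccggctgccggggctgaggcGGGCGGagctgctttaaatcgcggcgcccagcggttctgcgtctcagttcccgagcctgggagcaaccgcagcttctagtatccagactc
CLDN2, start 1: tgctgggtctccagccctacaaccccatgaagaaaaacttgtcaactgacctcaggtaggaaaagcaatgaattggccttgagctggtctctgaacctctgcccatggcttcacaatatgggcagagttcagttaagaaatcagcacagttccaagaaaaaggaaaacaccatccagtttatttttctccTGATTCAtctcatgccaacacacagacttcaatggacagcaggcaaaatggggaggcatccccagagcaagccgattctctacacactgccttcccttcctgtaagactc
CLDN2, start 2: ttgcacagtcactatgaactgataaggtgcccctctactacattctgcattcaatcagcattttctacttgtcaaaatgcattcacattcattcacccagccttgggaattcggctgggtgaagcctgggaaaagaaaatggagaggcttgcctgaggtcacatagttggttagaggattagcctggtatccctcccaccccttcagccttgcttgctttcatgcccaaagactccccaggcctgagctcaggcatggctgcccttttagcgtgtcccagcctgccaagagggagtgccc
CLDN3: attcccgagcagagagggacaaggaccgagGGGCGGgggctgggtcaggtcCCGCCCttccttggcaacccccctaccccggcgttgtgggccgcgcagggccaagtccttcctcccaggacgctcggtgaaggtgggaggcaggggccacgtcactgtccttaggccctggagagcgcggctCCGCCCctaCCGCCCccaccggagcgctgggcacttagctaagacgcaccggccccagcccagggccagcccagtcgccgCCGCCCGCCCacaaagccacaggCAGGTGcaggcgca
CLDN4: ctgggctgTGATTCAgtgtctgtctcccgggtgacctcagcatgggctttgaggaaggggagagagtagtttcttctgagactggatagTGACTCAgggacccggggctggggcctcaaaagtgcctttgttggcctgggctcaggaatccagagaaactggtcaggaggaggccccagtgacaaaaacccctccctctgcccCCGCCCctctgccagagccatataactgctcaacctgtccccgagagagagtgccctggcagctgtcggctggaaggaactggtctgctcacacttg

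The CLDN2 windows were poor in CpG, the dinucleotide that marks most housekeeping promoters. Start 1 held 1 CpG at 47.3% GC and start 2 held 2 CpG at 51.3% GC, where the median of the 35116 RefSeq promoters was 14 CpG and 58.7% GC. CLDN1 held 31 CpG at 67.0% GC and CLDN3 held 24 CpG at 72% GC, whereas CLDN4 held 5 CpG at 59.0% GC. In all, 8 of the 9 genes matched a RefSeq promoter, giving 14 windows, of which 5 held fewer CpG than the median. F11R had no entry. Both strands were searched for 8 short motifs, and a match is a description of the letters and not a bound site. The AP-1 letters TGANTCA occurred once in CLDN2 start 1, 60 bases before the start, and in CLDN4 at 242 and 161 bases before the start, against 7.71% of all promoters. The GC box GGGCGG occurred 88 and 40 bases before the CLDN1 start, 47 bases before that of CLDN4 and 6 times in CLDN3, where the last of these matches overlap each other, against 45% of all promoters. The E-box CAGGTG occurred in CLDN3, 36 bases after the first transcribed base, and in 5 of the 14 windows, against 20.6% of all promoters. No window of the 14 held the grainyhead letters AACCNGTT (1.73% of all promoters), the CHR element TTTGAA (15.2%), the E2F letters TTTCGCGC (0.515%), the TATA box TATAAA (11.5%) or the full palindromic oestrogen response element, GGTCA and TGACC with 3 bases of any kind between them (0.057%).

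The libraries were prepared with a 3′ mRNA kit, which makes about a single tag near the end of each transcript, so levels of different genes can be compared per transcript without correction for length. Levels are given as CPM, the usual scaling of a gene's counts to a fixed library total, adjusted by the trimmed mean of M values (TMM). The libraries held between 3317860 and 4013156 assigned counts, and 3 counts, taken as the floor below which a level is not told from 0, corresponded to 0.736 to 0.904 CPM. Replicates correlated at r = 0.966 to 0.973 over genes on the log2 CPM scale. Abemaciclib replicate 3 stood somewhat apart, since its counts differed from those of the other abemaciclib libraries with a chi-square per gene of 6.98 and 7.41, where the other pair of that group gave 3.47 and the DMSO pairs 2.83 to 4.21. Over the 10863 genes tested with edgeR's quasi-likelihood test, 25.7% passed an adjusted P of 0.05, 12.5% higher and 13.3% lower with abemaciclib. In bulk RNA, fewer cells that express a gene and less RNA per cell cannot be told apart.

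CLDN2, the channel-forming claudin, showed the largest difference of the 9 genes. It is encoded on the plus strand at chrX:106900164-106930861 in GRCh38 and has 2 exons in its canonical transcript. In DMSO it was counted 1, 3 and 1 times, which is 0.288, 0.886 and 0.301 CPM and at or under the floor in every library. In abemaciclib it was counted 109, 140 and 74 times, or 32.8, 34.4 and 19.9 CPM. The lowest abemaciclib library thus lay far above the highest DMSO library, with abemaciclib replicate 3 the lowest of its group. The pooled ratio was 59.1, with a 95% counting interval of 25.1 to 183, and it was 58.5 when libraries were scaled by total counts alone. The fitted log2 fold change was 5.78 (SE 0.44), a size that depends on the few DMSO counts. Without DMSO replicate 2, which held 3 of the 5 DMSO counts, it was 6.46. RIPPLY1 overlaps CLDN2 on the opposite strand away from its 3′ end and had 0 to 2 counts in each library.

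CLDN1, the claudin that is indispensable for the skin barrier, was the other gene with a higher level in every abemaciclib library. It lies on the minus strand at chr3:190305707-190322446 and has 4 exons. Its level was 2.88, 0.295 and 1.51 CPM in DMSO, from 10, 1 and 5 counts, and 5.72, 11.5 and 13.2 CPM in abemaciclib, from 19, 47 and 49 counts. The groups did not overlap, but the DMSO libraries spread widely, with a coefficient of variation of 82.9% where counting alone would give 43.3%. The pooled ratio was 6.58, with a 95% counting interval of 3.88 to 11.9, and the log2 fold change was 2.67 (SE 0.53). This value ranged from 2.19 without DMSO replicate 2 to 3.45 without DMSO replicate 1. Abemaciclib replicate 3 was the highest library for CLDN1 and the lowest of its group for CLDN2. Both genes passed the filter on low counts only through the abemaciclib libraries.

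**Figure D1:**
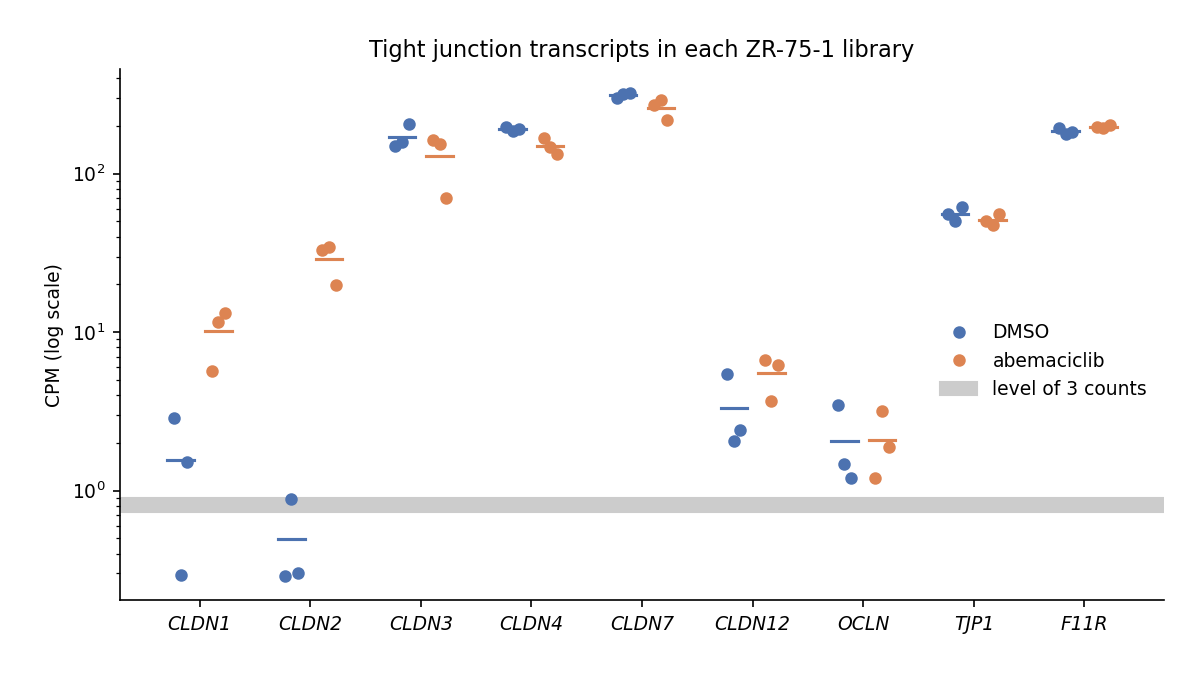
Level of each tight junction transcript in each library, in CPM on a log scale, with points for the 3 DMSO and 3 abemaciclib libraries, bars for group means and a grey band for the level of 3 counts. CLDN2 lies at or under the band in DMSO and between 19.9 and 34.4 CPM in abemaciclib, whereas CLDN7, CLDN4, CLDN3 and F11R lie near or above 100 CPM in most libraries of both groups.

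CLDN3 and CLDN4, which share a receptor role for a Clostridium enterotoxin, are neighbours on chromosome 7. CLDN3 is a gene of 1 exon at chr7:73768997-73770270 on the minus strand, and CLDN4 is annotated at chr7:73799542-73832690 on the plus strand. The gap between the annotated spans is 29271 bases. The CLDN4 promoter window shown above, at chr7:73830746-73831045, lies inside its span and farther from CLDN3. CLDN4 was measured at 198, 186 and 193 CPM in DMSO and at 169, 147 and 133 CPM in abemaciclib. Each abemaciclib library lay below each DMSO library, and the log2 fold change was −0.36 (SE 0.11). The difference ranged from −0.46 to −0.28 when single libraries were left out, and it no longer passed the threshold without DMSO replicate 1 (−0.35) or without abemaciclib replicate 2 (−0.35).

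CLDN3 was measured at 149.7, 159 and 205 CPM in DMSO and at 164, 153 and 70.2 CPM in abemaciclib. The groups overlapped, and abemaciclib replicate 3 alone lay well under all the others. Its log2 fold change of −0.41 (SE 0.18) did not pass the threshold and was −0.11 without that library. It passed when the filter on low counts was dropped (−0.41) and without abemaciclib replicate 1 (−0.61).

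CLDN7, a claudin of the basolateral membrane as well as of the junction, was the most abundant of the 9 transcripts in both groups. It lies on the minus strand at chr17:7259903-7263983. Its level was 302, 318 and 322 CPM in DMSO and 269.7, 290.6 and 217 CPM in abemaciclib. All abemaciclib libraries lay below the DMSO libraries, yet the log2 fold change of −0.28 (SE 0.11) did not pass the threshold. It did pass with scaling by total counts alone (−0.29), with a filter of at least 10 counts in every library (−0.28) and without abemaciclib replicate 2 (−0.37), and it was −0.16 without abemaciclib replicate 3. The 3′ end of CLDN7 shares 38 bases with ELP5 on the opposite strand, and since the strand setting of the counting is not given in the sources used here, reads in these bases are uncertain. ELP5 had 18 to 41 counts in each library and CLDN7 averaged 962.7 in abemaciclib. Reads in the shared bases may be counted for neither gene, so these counts do not bound the uncertainty. The pseudogene CLDN7P1 had 0 counts, as did ENSG00000262302, which overlaps CLDN7 on the same strand away from its 3′ end.

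CLDN12, an atypical claudin that lacks the binding motif for the ZO scaffolds, was scarce. It lies on the plus strand at chr7:90383721-90513402. On the same strand, away from its 3′ end, its exons overlap those of GTPBP10 (35 to 78 counts a library) and CDK14 (23 to 53). They also overlap PTTG1IP2 and ENSG00000273299, which had 0 counts. How reads that match more than 1 gene were counted is not given in the sources used here. Its level was 5.48, 2.07 and 2.41 CPM in DMSO and 6.62, 3.68 and 6.18 CPM in abemaciclib, from 7 to 23 counts a library. The groups overlapped, and the log2 fold change was 0.71 (SE 0.49). It was 1.27 without DMSO replicate 1 and 0.46 without DMSO replicate 2, and it passed the threshold in no alternative.

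OCLN was close to the limit of detection. It lies on the plus strand at chr5:69492292-69558104. It was counted 12, 5 and 4 times in DMSO and 4, 13 and 7 times in abemaciclib, or 3.46, 1.48 and 1.20 CPM against 1.20, 3.19 and 1.88 CPM. The groups overlapped over almost their whole range. OCLN failed the filter on low counts. In the fit without that filter its log2 fold change was 0.05 (SE 0.74). OCLN differences of the size of that error and well above it, of either sign, cannot be told from 0 at this depth. Its partial copy OCLNP1 had 0 or 1 count in each library. How the counting treated reads that match both copies is not given in the sources used here, so the level and rank of OCLN are uncertain.

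The scaffold and adhesion genes differed little. TJP1, which lies on the minus strand at chr15:29699367-29968915 and has 28 exons, was measured at 55.4, 49.9 and 61.8 CPM in DMSO and at 50, 47.6 and 55.7 CPM in abemaciclib. Its log2 fold change was −0.13 (SE 0.15), with overlapping groups. F11R, on the minus strand at chr1:160995211-161021343, was measured at 194, 177 and 184 CPM in DMSO and at 197, 193 and 204 CPM in abemaciclib. The groups overlapped by a small margin, and the log2 fold change was 0.10 (SE 0.10). An annotated read-through gene of the same strand, ENSG00000270149, covers 500 bases at the 3′ end of F11R and had 0 counts. How the counting treated reads that match both genes is not given in the sources used here, so the level and rank of F11R are uncertain.

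Of the 9 genes, 8 were tested, and 2 of these were called higher, 1 lower and 5 in neither direction, where the background over all genes was 25.7% called, 12.5% higher and 13.3% lower. The groups did not overlap for 4 of the 9, with abemaciclib above for 2 and below for 2. Among all genes tested, 39.1% had groups that did not overlap, 19.1% above and 20.0% below. Nothing is read from these counts, because the same contrast chose the genes. The median log2 fold change of the 8 tested genes was −0.01, against −0.00 over all genes.

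**Figure D2:**
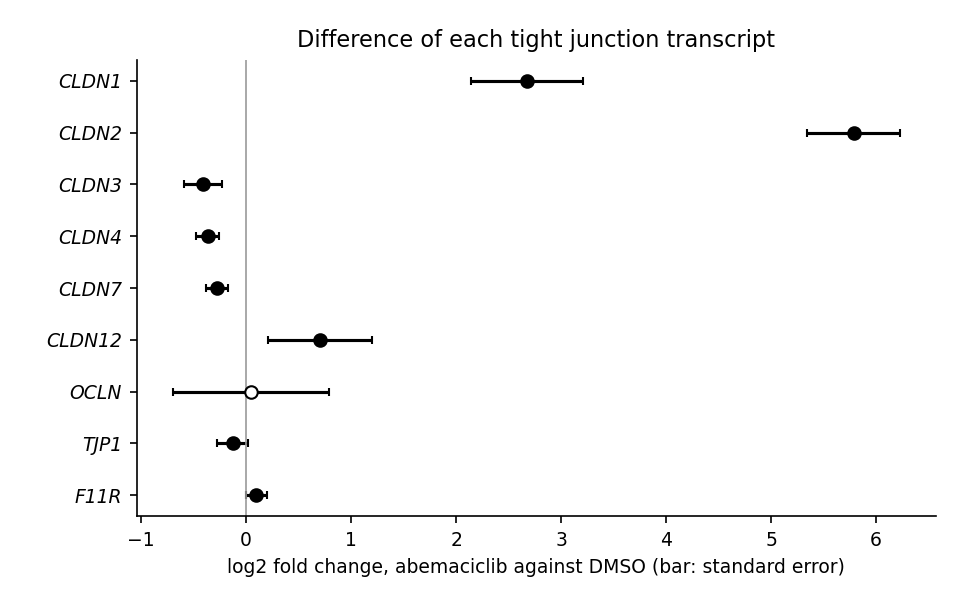
Difference between abemaciclib and DMSO for each of the 9 genes, as a log2 fold change with a bar of 1 standard error on each side, and an open point for OCLN, whose value comes from the fit without a filter on low counts. CLDN2 at 5.78 and CLDN1 at 2.67 stand apart, and the other 7 lie between −0.41 and 0.71.

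The order of the transcripts by mean level was similar at the top and different in the middle. In DMSO it ran CLDN7, CLDN4, F11R, CLDN3, TJP1, CLDN12, OCLN, CLDN1, CLDN2. The ranges of CLDN4, F11R and CLDN3 overlapped in that order, as did those of each neighbouring pair from CLDN12 down to CLDN2. In abemaciclib the order was CLDN7, F11R, CLDN4, CLDN3, TJP1, CLDN2, CLDN1, CLDN12, OCLN. Here CLDN4 overlapped with CLDN3 and CLDN1 with CLDN12, whereas CLDN2 lay between TJP1 and CLDN1 without reaching either. CLDN2 thus moved from the last place to the place after TJP1, but at a mean of 29.0 CPM ± 7.94 (SD, n = 3) it was still well below CLDN7, at 259 CPM ± 37.8.

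Counted as a share of the 6 claudins, CLDN2 made up 0.0728% ± 0.0522 in DMSO and 4.92% ± 0.534 in abemaciclib (SD, n = 3 each). Its share was 5.07%, 5.37% and 4.33% in the abemaciclib libraries. Replicate 3, with the lowest CLDN2 level, lay closer to the others as a share, since its claudin total was also the lowest. CLDN1 made up 0.230% ± 0.198 and 1.85% ± 0.993. The sealing claudins kept most of the total, with CLDN7 at 46.0% ± 1.59 and 44.8% ± 2.87, CLDN4 at 28.2% ± 1.72 and 26.0% ± 2.99, and CLDN3 at 25.0% ± 2.94 and 21.5% ± 5.43. CLDN12 stayed at or under 1.35% in every library. The summed level of the 6 claudins was 658, 666 and 724 CPM in DMSO and 648, 640.1 and 459.6 CPM in abemaciclib. The abemaciclib libraries lay below those of DMSO, and most of the distance was in replicate 3.

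**Figure D3:**
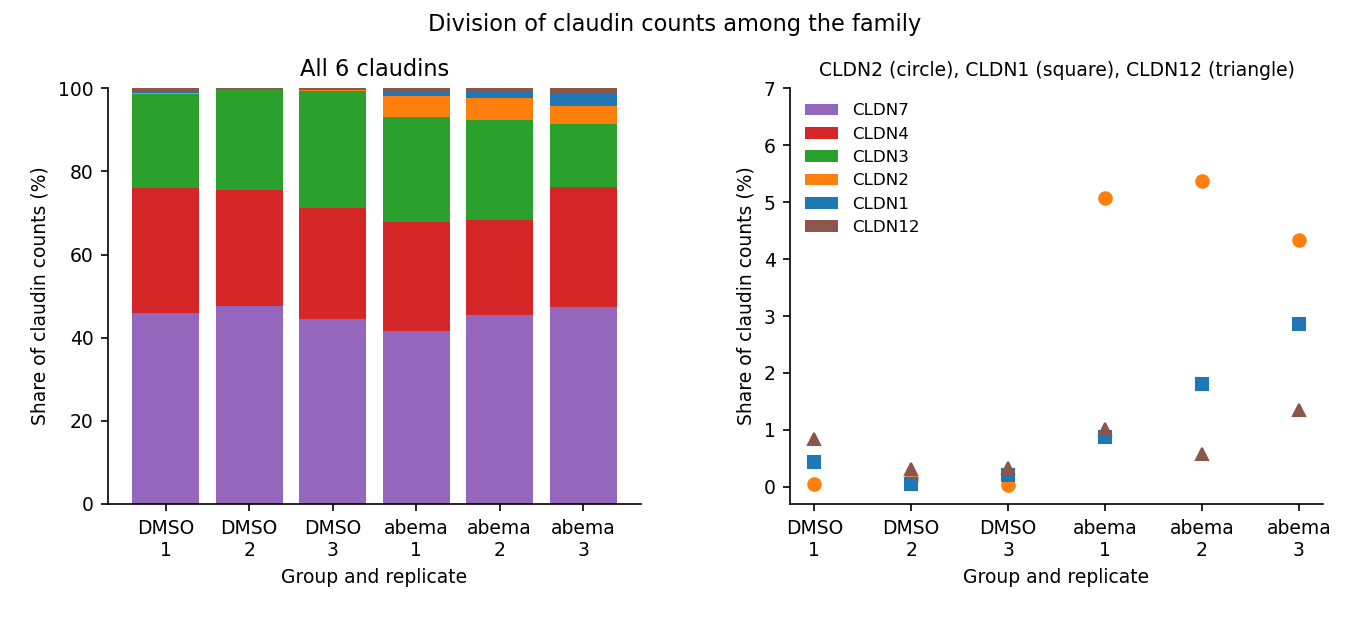
Share of each claudin among the summed counts of the 6 claudins in each library, in percent, as stacked bars for all 6 (left) and as points on a wider scale for CLDN2, CLDN1 and CLDN12 (right). The CLDN2 points lie between 4.33% and 5.37% in abemaciclib and near 0 in DMSO, and the CLDN1 points lie between 0.883% and 2.87% in abemaciclib.

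The rest of the junction was followed in 75 genes in 5 lists, which were also drawn up with earlier results of these data known, so their P values are no independent support. Of the 75, 48 had enough counts to be tested and 17 had no count in any library. By edgeR's quasi-likelihood test, 9 rose, 6 fell and 33 did not pass, which is 31.2% called against 25.7% of all genes. DESeq2 called 7 higher and 4 lower. The median of each list and its members' counts are descriptions, and no test was made of a list.

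The other claudins had few counts or none. Of 18, 13 had no count in any library, and CLDN6, CLDN8, CLDN9 and CLDN23 had 0 to 6 counts a library and were not tested. Among the 13, CLDN22 shares 500 bases of its 3′ end with WWC2 on the opposite strand, and CLDN10 shares 500 with DZIP1. WWC2 had 221 to 278 counts a library and DZIP1 had 0. With the strand setting not given, the 0 of CLDN22 and that of CLDN10 are uncertain. CLDN15, a channel-forming claudin of the intestine, was the only other claudin tested. It was counted 21, 31 and 10 times in DMSO and 72, 32 and 24 times in abemaciclib, with overlapping groups and a log2 fold change of 0.96 (SE 0.43, adjusted P = 0.103 by edgeR). Without abemaciclib replicate 1 the value was 0.24, and it passed the threshold without abemaciclib replicate 3 or without a filter on low counts. The count of called genes in this list was therefore 0 by edgeR's quasi-likelihood test and by DESeq2, with 1 gene at an unadjusted P under 0.05.

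Among the other membrane proteins of the junction, 6 of 11 were tested and 0 passed by edgeR's quasi-likelihood test or by DESeq2, with 1 at an unadjusted P under 0.05. JAM3 had 0 counts, but it shares 750 bases at its 3′ end with NCAPD3 on the opposite strand. NCAPD3 had 32 to 88 counts a library, so the 0 of JAM3 is uncertain. MARVELD2, which encodes tricellulin, the sealing protein where 3 cells meet, was measured at 93.5, 97.5 and 88.3 CPM in DMSO and at 105, 78.3 and 99.0 CPM in abemaciclib. Its log2 fold change was 0.01 (SE 0.13, adjusted P = 0.961 by edgeR). The level of MARVELD2 was many times that measured for OCLN in every library, though the OCLN level is uncertain.

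The cytoplasmic plaque held the largest differences outside the claudins, with 3 genes up, 3 down and 12 not past the threshold among 18 tested. CGNL1, which encodes paracingulin, a linker between junctions and microtubules, was measured at 9.81, 8.27 and 8.13 CPM in DMSO and at 55.4, 39.0 and 35.8 CPM in abemaciclib. It rose by 2.30 on the log2 scale (SE 0.23, adjusted P = 7.16e-09 by edgeR). Its paralogue CGN, cingulin, was scarcer, at 6.06, 6.5 and 7.53 CPM against 3.31, 0.491 and 4.57 CPM. The CGN groups did not overlap, with abemaciclib lower, but the log2 fold change of −1.28 (SE 0.53, adjusted P = 0.0753 by edgeR) passed the threshold only without abemaciclib replicate 3.

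AMOTL1, an angiomotin-family scaffold that binds the Hippo effector YAP, went the other way. It was measured at 64.3, 45.8 and 70.2 CPM in DMSO and at 21.4, 14.7 and 17.2 CPM in abemaciclib, and fell by 1.77 on the log2 scale (SE 0.19, adjusted P = 4.53e-08 by edgeR). AMOT of the same family fell by 0.72 (adjusted P = 0.0244 by edgeR), a call that did not hold by DESeq2, nor when DMSO replicate 2 or abemaciclib replicate 2 was left out. The call of ARHGEF2, a junction-bound activator of RhoA that fell by 0.56 (adjusted P = 0.00763 by edgeR), was lost without DMSO replicate 1.

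TJP3, which encodes the scaffold ZO-3, rose from 47.7 CPM ± 5.84 to 74.4 CPM ± 4.98 (SD, n = 3 each), a log2 fold change of 0.64 (SE 0.14, adjusted P = 0.00118 by edgeR). TJP3 shares 42 bases of its 3′ end with APBA3 on the opposite strand. PATJ, a scaffold of the Crumbs complex, was higher by 0.49 (adjusted P = 0.0485 by edgeR), and this call was lost in 10 of 12 alternatives.

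Polarity complexes place the junction between the apical and basolateral membranes, and all 11 of their listed genes were tested. The count was 2 higher, 2 lower and 7 not past the threshold. PARD6B, a partner of atypical protein kinase C, was measured at 48.2, 42.2 and 33.7 CPM in DMSO and at 78.3, 57.7 and 77.4 CPM in abemaciclib, and rose by 0.78 (SE 0.16, adjusted P = 0.000543 by edgeR). PARD6A of the same family was lower by 0.39 (adjusted P = 0.0435 by edgeR), a call lost in 8 of 12 alternatives. PRKCZ, the gene of an atypical protein kinase C, was higher by 0.79 (adjusted P = 0.00456 by edgeR), but its end overlaps FAAP20 on the opposite strand and its counts are uncertain. SCRIB, a basolateral scaffold, fell from 46.7 CPM ± 3.69 to 29.0 CPM ± 5.66, a log2 fold change of −0.69 (SE 0.18, adjusted P = 0.00407 by edgeR).

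Of the 16 regulators listed, 12 were tested, 4 rose, 1 fell and 7 did not pass. The epithelial ETS factors EHF and ELF3 moved in opposite directions. EHF was measured at 307, 302 and 279.5 CPM in DMSO and at 445, 536 and 529 CPM in abemaciclib, and rose by 0.77 (SE 0.10, adjusted P = 5.86e-07 by edgeR). ELF3 was measured at 143, 162 and 174 CPM in DMSO and at 119.8, 109.9 and 94.9 CPM in abemaciclib, and fell by 0.56 (SE 0.12, adjusted P = 0.000553 by edgeR).

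SPINT1 and SPINT2, inhibitors of membrane serine proteases, were higher by 0.57 (adjusted P = 0.0047 by edgeR) and by 0.33 (adjusted P = 0.0105 by edgeR). The call of SPINT2 was lost without DMSO replicate 2 or DMSO replicate 3. ST14, the gene of the protease matriptase that both inhibit, was higher by 0.32 (adjusted P = 0.0419 by edgeR), and this call was lost in 8 of 12 alternatives. ST14 fell outside the rule for named genes and was added after its values were seen. GRHL2, a grainyhead factor known to drive claudin and E-cadherin genes, was measured at 31.0 CPM ± 3.81 in DMSO and 34.2 CPM ± 9.44 in abemaciclib, a log2 fold change of 0.15 (adjusted P = 0.646 by edgeR). EPCAM, which stabilises CLDN7 at the membrane, had a log2 fold change of −0.27 (SE 0.13, adjusted P = 0.123 by edgeR), with overlapping groups, and passed the threshold without DMSO replicate 1 or abemaciclib replicate 3.

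**Figure D4:**
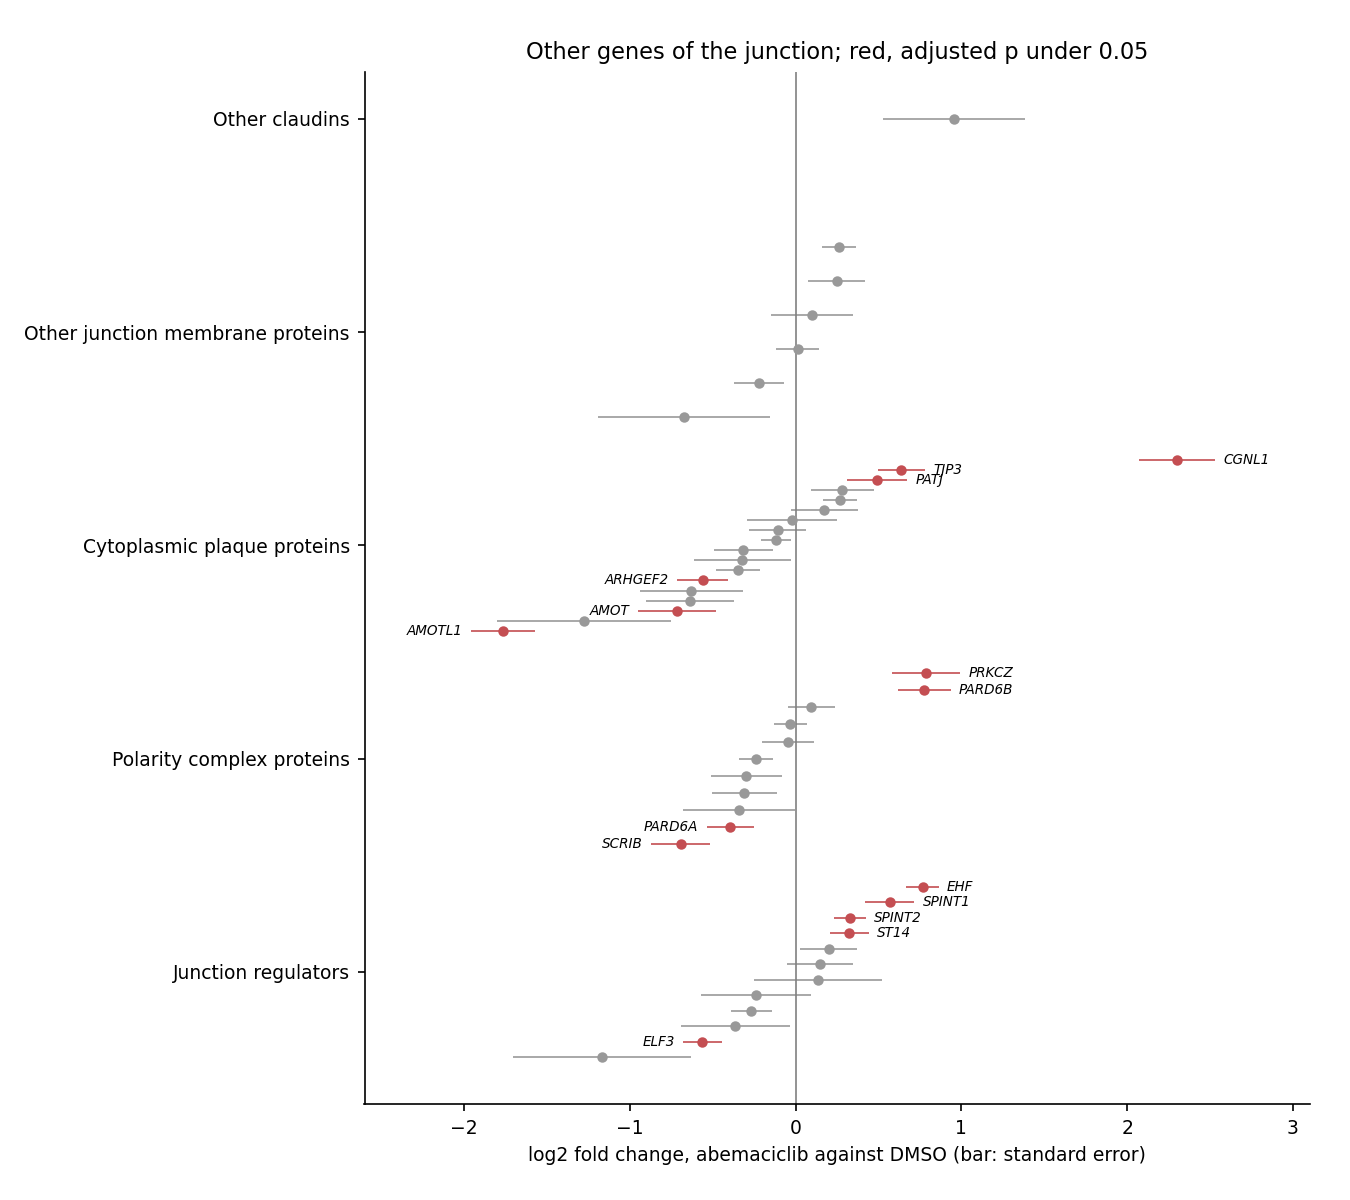
Log2 fold change of the 48 tested genes of the other tight junction lists, abemaciclib against DMSO, with a bar of 1 standard error on each side, and red for an adjusted P under 0.05 in edgeR's quasi-likelihood test. CGNL1 at 2.30 and AMOTL1 at −1.77 mark the ends, and both directions occur in the plaque, polarity and regulator lists.

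The libraries carried the markers of luminal epithelium. All 8 luminal markers were tested, and their summed level was 7437 to 7892 CPM in DMSO and 8479 to 9465 CPM in abemaciclib. Its members did not move together. KRT19, a luminal keratin, rose from 3113 CPM to 4258 CPM on average (log2 fold change 0.45, adjusted P = 0.000207 by edgeR) and ESR1, the oestrogen receptor gene, rose by 0.83 (adjusted P = 2.92e-07 by edgeR), whereas KRT18 fell by 0.34 (adjusted P = 0.00515 by edgeR) and the other 5 did not pass the threshold. Of 5 basal markers, KRT5, KRT14 and TP63 had no count. The basal sum was 10.7 to 26.2 CPM in DMSO and 7.36 to 9.14 CPM in abemaciclib. Within it, ACTA2 was measured at 6.06, 8.27 and 13.3 CPM in DMSO and at 1.81, 0.491 and 1.61 CPM in abemaciclib. ACTA2 was called lower, at −2.82 on the log2 scale (SE 0.53, adjusted P = 0.000191 by edgeR), with 6, 2 and 6 counts in abemaciclib. OXTR was not called, at −0.54 (SE 0.38, adjusted P = 0.33 by edgeR), and its groups overlapped. Fibroblast markers summed to 10.3 to 15.7 CPM and 10.3 to 15.6 CPM, with 3 of 6 at 0, endothelial markers to at most 0.886 and 1.51 CPM with 3 of 4 at 0, and leukocyte markers to at most 0.295 and 0.245 CPM with 3 of 5 at 0. The part of these levels in the differences above was not tested.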

How the data were processed

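RNA of 6 ZR-75-1 cultures, 3 with DMSO and 3 with abemaciclib, was sequenced from 3′ mRNA libraries. The deposited values are raw counts per gene, not normalised, which the authors made by trimming reads with BBDuk, aligning to hg38 with STAR (2.7.5b) and counting with featureCounts (2.0.1) on GENCODE annotation. The strand setting is not given in the sources used here.

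From these, counts were tested across all genes with edgeR (4.0.16, R 4.3.3) as filterByExpr, TMM scaling and the quasi-likelihood test, with Benjamini-Hochberg adjustment at 0.05 over 10863 genes. The biological coefficient of variation was 13.2%. Of the 60656 genes, 60401 had a symbol in a later annotation of the same build. The fit was tested on simulated data. The study's own choice, DESeq2 (1.42.0 here), was an alternative, with other scalings, other filters, a replicate block and each library left out.

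The 9 genes and all lists were chosen with earlier results of these data known. Named genes were the 9, every other claudin with a count, from the other lists the called genes that averaged 5 CPM or more (up to 8 in each direction), the fixed genes CGN, MARVELD2, GRHL2 and EPCAM, and genes that could share reads. A further gene under this rule is not reported here. Coordinates are from the annotation on GRCh38. Counting intervals (95%) and floors cover counting error only, and P values measure only the spread between these cultures.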

Additional observations from a re-analysis of the deposited data

How the results depend on the processing

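Under the alternatives, 62 of 64 values of the comparisons stayed within 1.5 times the count, or within 1 SD, of the reported value. Of 325 values of single genes, 295 stayed close. Close meant within 1 SD for the 9 genes, or on the same side of the threshold for the others. For the 9 genes that SD is the larger spread between libraries of a group, on the log2 scale. Leaving out 1 library seldom moves a value that far, so the tally is no strong check of the 9 genes. CLDN3, for example, went from −0.41 to −0.11 without abemaciclib replicate 3 and was counted as close. The threshold changes of CLDN3, CLDN4 and CLDN7 are given with their values in the text, no called gene changed sign, and the sign turned in some alternatives for OCLN, MARVELD2 and GRHL2, none of them called. The median log2 fold change of the tight junction genes was −0.28 with at least 10 counts in every library. That filter leaves 5 of them and drops CLDN2, CLDN1 and CLDN12, which were low in DMSO and had the highest values. The median ranged from −0.069 to 0.023 with single libraries left out, the lowest without DMSO replicate 2. With single libraries left out, 981 to 1412 genes were called higher and 1132 to 1529 lower, 6 to 11 and 4 to 9 of them among the other tight junction genes, and the CLDN2 share of claudins in abemaciclib was 4.70% to 5.22%. Samples with the same number did not deviate together (r = −0.04, 0.01 and −0.09 for numbers 1, 2 and 3), so the numbers are not taken to pair the cultures. A replicate block gave 1139 genes higher and 1280 lower, and 7 and 5 among the other tight junction genes, with a median of −0.01 for the 8 tested of the 9. Calls lost under more than 1 setting were those of PATJ, PARD6A, ST14, AMOT, SPINT2 and CLDN4, and the cause was not tested. Libraries of 3317860 to 4013156 counts limit CLDN2 and CLDN1 in DMSO, OCLN and CLDN12, where single libraries hold 1 to 23 counts.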

Other observations

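The neighbours CLDN3 and CLDN4 had a ratio of CLDN3 to CLDN4 counts of 0.758, 0.856 and 1.06 in DMSO and of 0.968, 1.04 and 0.528 in abemaciclib. The groups overlapped, and the lowest ratio was that of abemaciclib replicate 3. Within DMSO the coefficient of variation was 17.3% for CLDN3 and 3.00% for CLDN4, where counting alone would give 4.15% and 3.92%. Within abemaciclib it was 39.7% for CLDN3 and 12.3% for CLDN4, where counting alone would give 4.58% and 4.26%.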
